A study of Salmo salar with 18 samples.

Results

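Graded probes are array probes whose liver signal moved with warming and moved further in the same direction where low oxygen was added to warming. They were taken from the deposited values of probes with a value on all 18 arrays, a value being the log2 ratio of a fish to a common pool of liver RNA. A probe was a member where the 6 WH values all lay beyond the 6 CT values on one side, the WN mean lay at least 0.3 from the CT mean on that side, and the WH mean lay at least 0.5 beyond the WN mean. The 40 probes that the study listed for its qPCR genes (the qPCR probes) were left out, whereas other probes of those genes were not. Of the 40, 1 rising and 1 falling probe would otherwise have passed. Of 11761 probes with 18 values, 66 were members, 37 rising and 29 falling.

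The fish were post-smolt juvenile Atlantic salmon held in seawater. CT fish stayed at 12 °C and 100% air saturation, WN fish were warmed by 1 °C per week to 20 °C at 100% air saturation, and WH fish were brought to 70% air saturation first and then warmed in the same way at 70%. Liver was taken from 6 fish per treatment, 3 from each of 2 tanks (T3 and T4 for CT, T2 and T5 for WN, T1 and T6 for WH). WN and WH fish were sampled after 3 days at 20 °C. Each fish had its own salmon oligonucleotide array. The fish RNA carried Cy5, the pool of all 18 fish carried Cy3, and no dyes were swapped. Treatment was given to tanks, so fish of a tank are not independent, and a tank effect within 2 tanks per treatment cannot be fully told apart from treatment. The series has no hypoxic group at 12 °C, so WH minus WN compares lower with full oxygen in warmed fish only. The paper reports that WH fish ate less and grew less than WN and CT fish. Feed, growth and tank cannot be told apart from lower oxygen in this contrast. Whole liver was used, so fewer cells of a type and less RNA per cell cannot be told apart.

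Warm water holds less oxygen while the metabolic rate of a fish rises with temperature, so warming and hypoxia press on the same supply of oxygen. Vertebrate cells respond to low oxygen mainly through hypoxia-inducible factors, and to warmth through heat shock factors that raise chaperones. In the liver, both conditions are known to shift energy metabolism, protein handling, hormone turnover and cell division.

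The rule used all 3 contrasts, so the values of the members between treatments are a description and carry no test. Among the 11740 probes with 18 values that were not qPCR probes, all 6 WH fish lay above all 6 CT fish at 316 (2.69%). They lay below them at 319 (2.72%). The WN step of at least 0.3 left 289 and 310 of these. The WH step of at least 0.5 then left the 37 rising and 29 falling members, which are 12.8% and 9.35% of the probes that had passed the earlier steps. Most probes that had passed the earlier steps therefore did not move a further 0.5 in WH fish. A step of at least 0.5 back towards CT occurred at 2 of the 289 rising and 5 of the 310 falling probes. The rule had already asked every WH fish to lie beyond every CT fish, which limits how many probes can step back. The 2 and 5 are therefore not set against the 37 and 29.

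The same rule with WN and WH exchanged, in which the WN fish lie beyond the CT fish and the WH mean is the intermediate one, found 9 rising and 30 falling probes. The rising count was thus higher towards WH than towards WN (37 and 9), and this order held in all alternatives run. The starting sets also differed. WN fish all lay above CT fish at 201 probes (1.71%) and below them at 341 (2.9%), against 316 (2.69%) and 319 (2.72%) for WH fish. Over all probes the median SD was 0.44 in WN and 0.37 in WH fish, and the part of this spread in the counts was not tested. Falling probes gave 29 and 30, and their order turned with the processing. In values computed from the scanner files it was 46 towards WH and 23 towards WN with normexp background correction and loess. It was 43 and 30 with plain subtraction, 23 and 28 with median centring and 27 and 29 with spot means. In the deposited values it was 40 and 43 with the slide effect taken out, and 30 and 64 without WN-6. Over all 11740 probes the median WH mean lay 0.08 above the WN mean on the log2 scale, and no test of these counts was made.

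**Figure D1:**
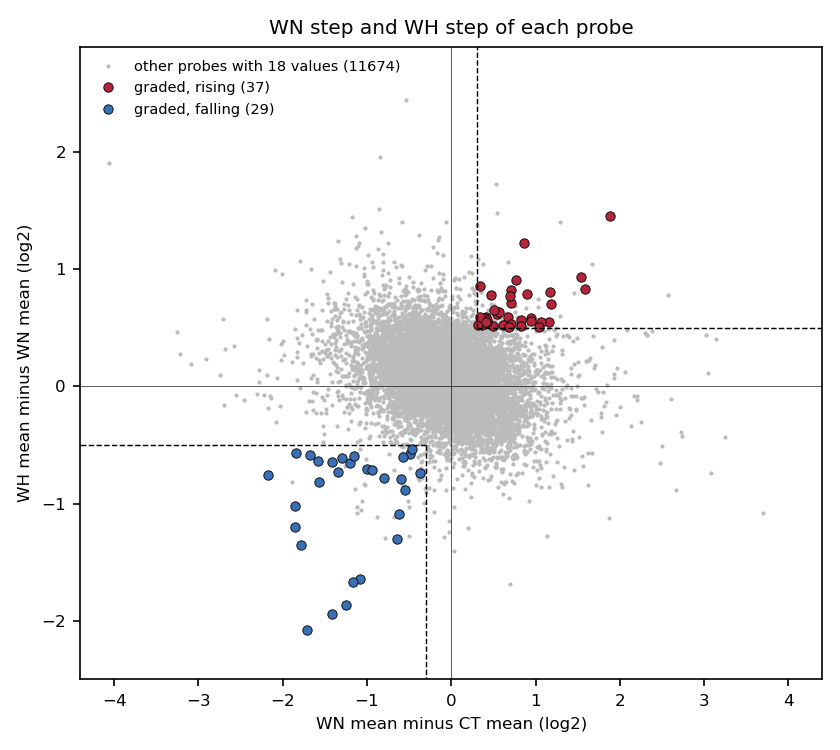
Difference of the WN mean from the CT mean (x axis, log2) against the difference of the WH mean from the WN mean (y axis, log2) for each probe with 18 values. Grey points are other probes, coloured points are the 37 rising and 29 falling members, and dashed lines mark the steps of 0.3 and 0.5. Grey points inside the marked corners are probes at which a WH fish overlapped a CT fish.

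In the 37 rising members, the difference of WN from CT ran from 0.32 to 1.88 with a median of 0.70, and the further difference of WH from WN ran from 0.50 to 1.46 with a median of 0.59. The rise from CT to WH had a median of 1.26 and reached 3.34. In the 29 falling members, the difference of WN from CT ran from -2.17 to -0.37 with a median of -1.20, and that of WH from WN ran from -2.08 to -0.54 with a median of -0.76. The difference of WH from CT had a median of -2.06 and reached -3.80. The WN step was the larger of the steps in 18 of 37 rising and 16 of 29 falling members.

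In the limma fit of 3 groups on values computed from the scanner files, all 66 members passed the filter on dim probes and were among the 23846 probes tested. At an adjusted p under 0.05, limma called 7 of the 37 rising members higher in WN than in CT fish, where 1.86% of all probes tested were called higher. It called 36 of 37 in WH against CT fish (2.42% of all probes tested). Of the 29 falling members it called 15 lower in WN fish (3.08%) and 29 lower in WH fish (2.72%). Between WH and WN fish, limma called 0 members of either kind, and 0% of all probes tested were called. At an unadjusted p under 0.05 these were 28 of 37 rising and 20 of 29 falling members, and 5.77% of all probes tested. Nothing is read from these counts, since the same fish and contrasts chose the members. The WH step of the members is therefore a difference between group means that did not pass the test at any single probe.

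WH and WN fish did not overlap at 0 of the 37 rising members (0.179% of all probes lay higher without overlap) and at 2 of the 29 falling ones (0.0767% lay lower). These are C080R163 and C102R131, which carry no gene name in the tables used. At C080R163 the WN fish ran from -1.23 to 0.65 with a median of -0.04, and the WH fish from -2.88 to -1.35 with a median of -1.88. At C102R131 the WN fish ran from -0.65 to 1.13 and the WH fish from -1.47 to -0.95. At both probes the WN fish overlapped the CT fish, which ran from 0.38 to 2.21 at C080R163 and from 0.17 to 1.40 at C102R131. WN and CT fish did not overlap at 2 rising members (1.71% of all probes higher) and 8 falling ones (2.9% lower).

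Gene names came from the annotation that the study made of its WN list, of which a part was readable, and they cover 6 of the 37 rising and 4 of the 29 falling members. Every named member is therefore a probe that the study selected as changed in WN fish on these same arrays. The remaining members, C113R149 among them, are known here by probe number only, and no sequence is shown for them.

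Among the rising members the highest change was at LOC106563387 (C105R014), which RefSeq lists as a long non-coding RNA with no described function. Its CT fish ran from -3.06 to -1.48 (median -2.24), its WN fish from -0.95 to 0.87 (median -0.49) and its WH fish from -0.33 to 2.21 (median 1.13). The 3 groups formed an ordered series in which CT was apart from both warmed groups, WH-6 lay among the WN fish and WN-3, at 0.87, near the other WH fish. The WN mean was 1.88 ± 0.38 (SE) above CT and the WH mean 1.46 ± 0.44 (SE) above WN, so WH fish were 10.1-fold above CT fish. The signal of the fish was above background on 5 of 6 CT, 5 of 6 WN and 6 of 6 WH arrays.

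Both probes to which the study's annotation gives the symbol STOM were members. Stomatin is an integral membrane protein that was first described in the human red cell membrane. At C027R068 the CT fish ran from -1.96 to -0.89 (median -1.86), the WN fish from -1.18 to 0.78 (median -0.11) and the WH fish from -0.27 to 1.35 (median 0.71). The WN fish fell apart by tank. The 3 fish of T2 lay between 0.65 and 0.78 and the 3 fish of T5 between -1.18 and -0.88, so T2 was at the level of the WH fish and T5 near the highest CT fish. The WH mean differed by -0.02 from the mean of T2 and by 1.68 from that of T5. At this probe the intermediate WN mean thus rested on one tank at the WH level and one far below it, and no WN fish lay near the mean of -0.14.

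The tank difference was not used by the rule and could be tested. In the limma fit of 6 tanks, T2 lay 1.62 (SE 0.34) above T5 at C027R068, with an adjusted p of 0.917 over all probes. The second STOM probe, C256R131, whose salmon transcript RefSeq names stoml3b, showed the same order, with T2 fish between -0.37 and 0.13 and T5 fish between -1.61 and -0.42. There T2 lay 0.98 (SE 0.36) above T5 (limma, adjusted p = 0.917). Its CT fish ran from -2.21 to -1.54 and its WH fish from -0.73 to 0.57, and the WH mean lay 0.19 above T2 and 1.22 above T5. After the group means were removed, the values at the 2 probes had a correlation of 0.80 over the 18 fish. The RefSeq name stoml3b differs from the study's symbol, so the 2 probes may read different genes. They share the arrays and the RNA of each fish.

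Red cells are a possible part of any liver sample, and 4 named probes of erythrocyte markers were tested. Their differences are given in the scanner values. GYPC (C188R134) lay 1.25 above CT in WN and 1.32 in WH fish. The alpha globin probe HBA4 (C081R093) lay at -0.90 and -1.12, and the 2 probes of ALAS2, the first enzyme of haem synthesis in red cells, at -0.57 and -0.71 in WN and -0.66 and -0.50 in WH fish. In all, 1 of the 4 was called higher and 0 lower in WN fish, and 1 higher and 1 lower in WH fish. Their part in the STOM values was not tested.

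LOC106585649 (C185R107) encodes a complement C1q-like protein 2, a member of the secreted proteins with a C1q domain. Its CT fish ran from -3.56 to -0.85 (median -1.92), its WN fish from -1.75 to 0.80 (median -0.56) and its WH fish from -0.38 to 1.32 (median 0.55). WN fish overlapped with both other groups. The WN mean was 1.54 ± 0.59 (SE) above CT and the WH mean 0.94 ± 0.46 (SE) above WN. Control tanks lay apart, with the 3 fish of T3 between -1.27 and -0.85 and those of T4 between -3.56 and -2.56 (T3 minus T4 1.83, SE 0.53, limma adjusted p = 0.984). In the RefSeq annotation of Ssal_v3.1 the gene lies on chromosome 2 with 0 annotated genes between it and LOC106585653, the c1ql2 gene of the qPCR set. The probe of that neighbour had values on 16 arrays and differences of 3.18 from CT in WN and 3.69 in WH fish. A probe of another locus annotated as C1QL2, C186R078, lay the other way, at -0.80 in WN and -0.74 in WH fish. It differed by 0.01 (SE 0.21, limma adjusted p = 0.996) between WH and WN fish in the scanner values.

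LOC106598366 (C132R033) encodes a SEC62-like protein. SEC62 is part of the channel through which newly made secretory proteins enter the endoplasmic reticulum. Its CT fish ran from -1.95 to -0.92 (median -1.30), its WN fish from -1.32 to 0.62 (median -0.17) and its WH fish from -0.60 to 1.75 (median 0.81). The highest WH values were those of tank T1, between 1.01 and 1.75, whereas T6 lay between -0.60 and 0.61, inside the WN range. T1 lay 1.33 above T6 (limma fit of 6 tanks, adjusted p = 1.00). The WN mean was 1.17 ± 0.31 (SE) above CT and the WH mean 0.81 ± 0.44 (SE) above WN.

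ABAT (C222R039), the mitochondrial enzyme that breaks down the transmitter GABA, was the named rising member with the narrowest WN group. In this gene the CT fish ran from -1.80 to -0.70 (median -1.34), its WN fish from -0.53 to -0.04 (median -0.19) and its WH fish from -0.35 to 0.79 (median 0.39). CT was apart from both warmed groups, and 2 WH fish of tank T6 lay within the WN range. WN lay 1.06 ± 0.17 (SE) above CT and WH 0.55 ± 0.22 (SE) above WN. A probe of another ABAT locus, C170R069, lay at -0.97 in WN and -0.86 in WH fish against CT, and differed by 0.05 (SE 0.24, limma adjusted p = 0.981) between WH and WN fish in the scanner values. The probes annotated as ABAT therefore had opposite signs, and the graded pattern was seen at one of them.

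**Figure D2:**
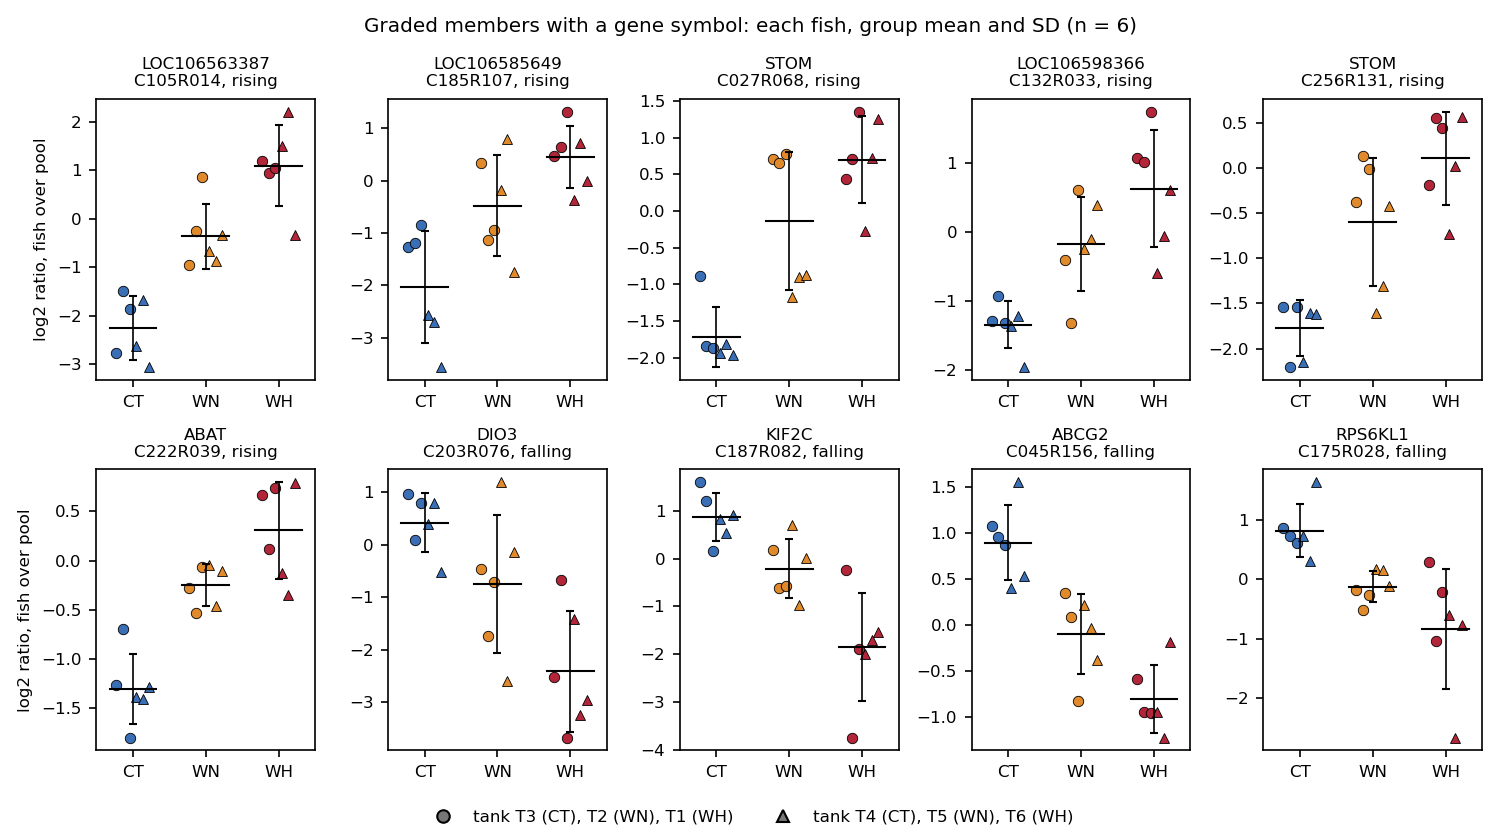
Deposited log2 ratio of fish to pool (y axis) in CT, WN and WH fish at the 10 members with a gene symbol. Each point is a fish, circles and triangles separate the tanks of a treatment, and lines and bars give the mean and SD (n = 6). At STOM C027R068 the WN fish of T2 lie between 0.65 and 0.78 and those of T5 between -1.18 and -0.88, and at RPS6KL1 the fish WH-5 lies at -2.66.

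Among the unnamed rising members, C206R059 had the largest rise to WH. Among its values, the CT fish ran from -2.29 to -0.38 (median -1.27), its WN fish from -1.82 to 0.69 (median -0.24) and its WH fish from 0.38 to 1.20 (median 0.80). The WH fish were the tightest of the groups, with an SD of 0.29 against 0.83 in WN fish. C113R149, which has a line without a name in the annotation, differed by 1.71 ± 0.26 (SE) between WH and CT fish. C174R041 differed by 1.68 ± 0.32 (SE), with a signal above background on 3 of 6 CT arrays.

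The falling members with names were a hormone enzyme, a mitotic motor, a transporter and a kinase. DIO3 (C203R076) codes for the type 3 deiodinase, which inactivates thyroid hormones. The CT fish ran from -0.52 to 0.97 (median 0.60), its WN fish from -2.60 to 1.20 (median -0.58) and its WH fish from -3.68 to -0.67 (median -2.74). WN fish spanned nearly the whole range of the others, with WN-4 above every CT fish and WN-5 among the WH fish. The WN mean differed from CT by -1.16 (SE 0.58) and the WH mean from WN by -1.67 (SE 0.71), and CT fish were 7.16-fold above WH fish. RefSeq lists the locus, LOC106571601, as a transcribed pseudogene.

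A second DIO3 probe of that locus, C224R136, was not a member because WH and CT fish overlapped, the highest WH fish lying at -0.31 and the lowest CT fish at -0.77. In the scanner values it fell by 1.85 (SE 0.39, limma adjusted p = 0.00596) from CT to WH fish. Its difference of -0.997 (SE 0.39, adjusted p = 0.156) between WN and CT fish and of -0.85 (SE 0.39, adjusted p = 0.847) between WH and WN fish did not pass the limma test. C224R136 had 18 values and was judged by the rule, which it failed on the separation of WH from CT. It carries a name from the study's WN list and was hybridized with the same RNA of the same fish. Its values are therefore no independent support for those of C203R076.

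KIF2C (C187R082), a kinesin that takes microtubules apart at the kinetochores of dividing cells, was lower at each step. For this probe the CT fish ran from 0.16 to 1.60 (median 0.87), its WN fish from -0.97 to 0.71 (median -0.28) and its WH fish from -3.75 to -0.24 (median -1.80). The lowest fish was WH-2 at -3.75, and WH-1 at -0.24 lay among the WN fish, the other 4 WH fish lying below every WN fish. The WN mean differed from CT by -1.08 (SE 0.33) and the WH mean from WN by -1.65 (SE 0.52). With scanner values from spot means, the WH step was -0.72.

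ABCG2 (C045R156), named by the study's protein search after the efflux transporter for foreign compounds, had groups of like spread, with SDs of 0.41, 0.44 and 0.37. Here the CT fish ran from 0.41 to 1.55 (median 0.91), its WN fish from -0.83 to 0.34 (median 0.02) and its WH fish from -1.23 to -0.18 (median -0.95). Neither warmed group overlapped with CT, and WH-6 at -0.18 was the WH fish nearest to CT. WN differed from CT by -0.997 (SE 0.24) and WH from WN by -0.71 (SE 0.23).

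RPS6KL1 (C175R028), a protein related to the ribosomal S6 kinases, was a member through 1 fish. Log2 ratios of its CT fish ran from 0.31 to 1.63 (median 0.73), its WN fish from -0.51 to 0.17 (median -0.15) and its WH fish from -2.66 to 0.29 (median -0.69). WH-1 lay above every WN fish and 0.03 from the lowest CT fish, the closest approach of WH to CT among the falling members. Without WH-5, at -2.66, the WH step was -0.34 in place of -0.71 and the probe no longer met the rule.

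The falling members with the largest change had no name. C106R124 was -3.80 ± 0.66 (SE) from CT to WH fish, C225R124 -3.36 ± 0.70 (SE) and C187R163 -3.14 ± 0.48 (SE). At C106R124 the CT fish ran from -0.19 to 2.07 (median 1.21), the WN fish from -1.89 to 0.30 (median -0.51) and the WH fish from -4.47 to -0.88 (median -2.52). The low end of these probes came from the same fish. WH-2 and WH-3 lay at -4.09 and -4.47 at C106R124, at -4.75 and -4.57 at C225R124 and at -3.74 and -2.92 at C187R163, whereas WH-1 lay at -0.88, -1.15 and -1.15.

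**Figure D3:**
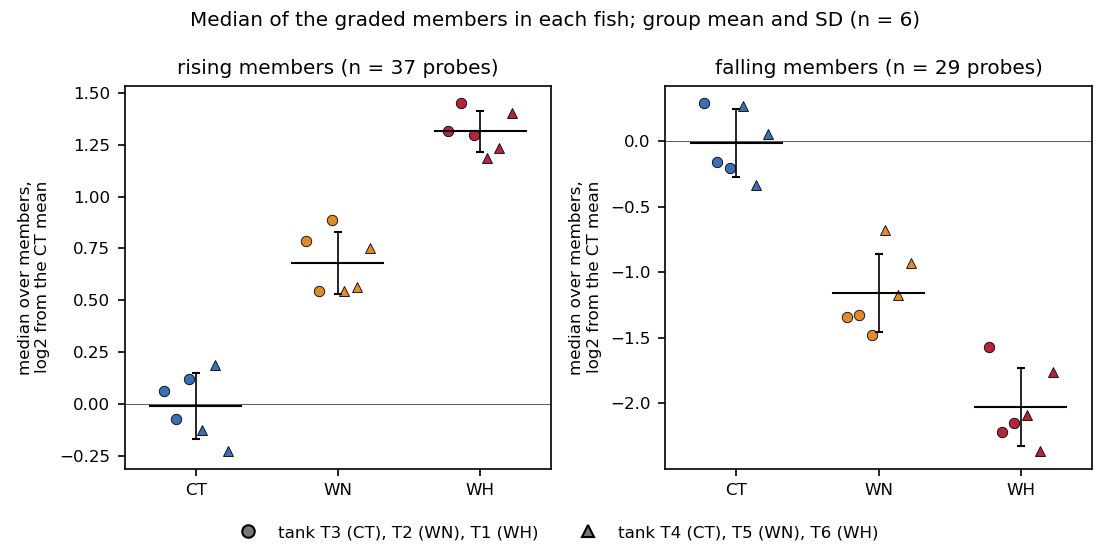
Median over the rising and over the falling members of the log2 difference of each fish from the CT mean (y axis), by treatment. Points are fish, circles and triangles the tanks, and lines and bars the group mean and SD (n = 6). WN fish lie between 0.55 and 0.89 for the rising members and WH fish between 1.19 and 1.45, and in the falling members WN tank T2 lies below T5.

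Summed up per fish as a median over the members, which the choice of members orders by treatment, the WN fish lay between 0.55 and 0.89 above the CT mean in the rising members and the WH fish between 1.19 and 1.45. In the falling members, the WN fish lay between -1.48 and -0.68 and the WH fish between -2.37 and -1.57. WN-4, at -0.68, was the WN fish nearest to CT, and WH-1, at -1.57, the WH fish nearest to WN. WH-1 was the least changed WH fish at 13 of the 29 falling members and WH-4 at 14 of the 37 rising ones. With WH-1 left out, 65 rising and 42 falling probes met the rule, which then asks for 5 WH fish beyond CT.

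The WH step was also taken against each WN tank. Of the 37 rising members, 21 had a WH mean at least 0.5 above the mean of T2 and 32 above that of T5, and 16 met this against both. Of the 29 falling members, 19 lay at least 0.5 below T2 and 29 below T5, and 19 met it against both. The median WH step was 0.59 against T2 and 0.72 against T5 in the rising members, and -0.64 against T2 and -1.01 against T5 in the falling members. For the falling members, T5 was thus the WN tank nearer to CT. In the scanner values T2 lay above T5 at 4 of the 29. The median T2 minus T5 was -0.32 in these members and 0.01 over all probes tested, for which the share above was not counted. Both WH tanks lay beyond both WN tanks at 34 of the 37 rising members (25.1% of all probes lay higher in this way) and 27 of the 29 falling ones (12.1% lower), a count that the rule largely fixes.

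**Figure D4:**
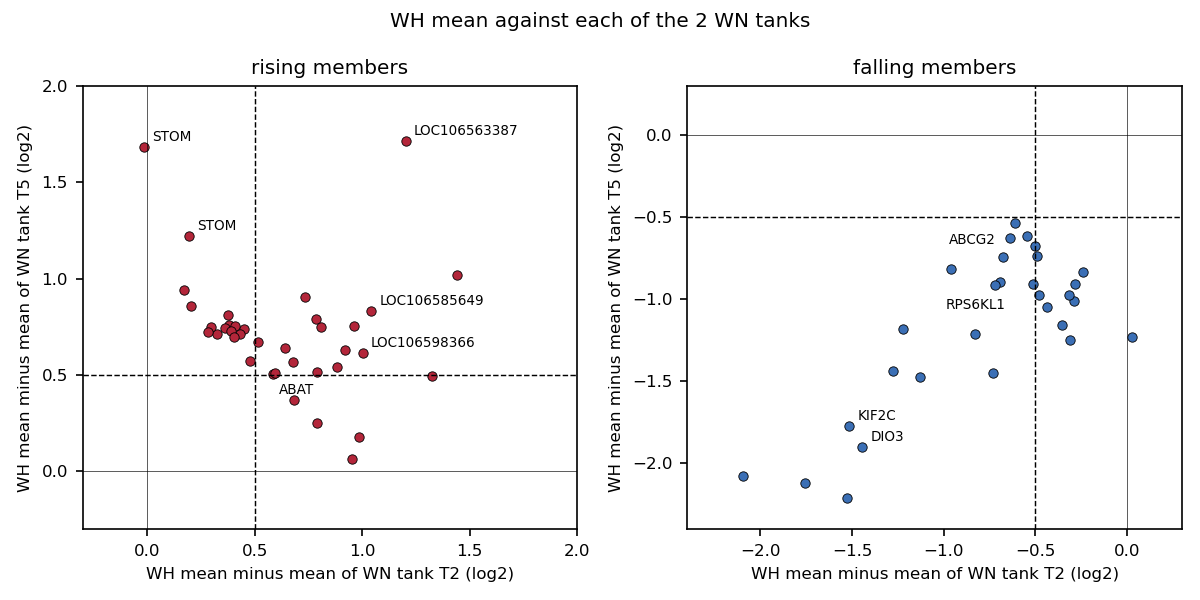
WH mean minus the mean of WN tank T2 (x axis, log2) against WH mean minus the mean of WN tank T5 (y axis, log2) for each rising and falling member. Points are members, with gene symbols where known, and dashed lines mark 0.5 in the direction of the rule. The STOM probes lie at -0.02 and 0.19 against T2 and at 1.68 and 1.22 against T5.

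The rule did not use the tank of a fish. Its separation of every WH from every CT fish does limit how far T1 can lie from T6 and T3 from T4. The counts for these tanks are therefore not independent of the rule. In the limma fit of 6 tanks, 0 members were called between T1 and T6, T2 and T5 or T3 and T4, where 0%, 0.00419% and 0% of all probes tested were called. At an unadjusted p under 0.05, T2 and T5 differed at 3 of 37 rising and 2 of 29 falling members (5.28% of all probes tested), T3 and T4 at 3 and 2 (5.01%), and T1 and T6 at 1 and 0 (3.9%).

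The array titles carry 5 codes such as X526, which the titles do not explain and which were taken as slides. Each slide so defined lacked a treatment or held few fish of it. In an F test of slide with treatment in the limma fit, 0 members were called (0.0587% of all probes tested). At an unadjusted p under 0.05 there were 3 of 37 rising members and 10 of 29 falling members, where 12.1% of all probes tested passed. The falling members with slide p under that value include DIO3, KIF2C, C106R124 and C187R163, and slide was smallest in adjusted p at C238R071 (limma, adjusted p = 0.101).

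With slide as a block in the fit of the deposited values, the WH step kept its direction at 37 of 37 rising and 29 of 29 falling members, with medians of 0.61 and -0.70. Its size changed at single probes. It was -1.44 in place of -2.08 at C106R124, -1.13 in place of -1.65 at KIF2C and -1.99 in place of -1.67 at DIO3. On slides that held both groups, the median WH step of the rising members was 0.66 on X526 (1 WH and 1 WN fish), 0.69 on X528 (1 and 2) and 0.64 on X547 (2 and 2), and 31, 34 and 33 of 37 members were higher. For the falling members these medians were -0.81, -0.62 and -1.03, and 26, 25 and 29 of 29 members were lower. The median over all probes was 0.00 on X526, 0.05 on X528 and 0.14 on X547, and the fish compared are among those that chose the members.

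The members were not bright probes. The median spot signal over the arrays had a median of 1216 in Cy5 for rising and 859 for falling members, against 1748 for all 11740 probes. The signal of the fish was above background on every array at 26 of 37 rising and 23 of 29 falling members. The share of all 11740 probes for which this held was not counted, so these counts are not set against it. The spread between fish of a treatment was larger in the falling members, with a median SD of 0.50 in CT, 0.65 in WN and 0.57 in WH fish, than over all probes (0.39, 0.44 and 0.37). In the rising members it was 0.37, 0.57 and 0.45.

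After the treatment means were removed, the mean pairwise correlation over the 18 fish was 0.05 among the rising and 0.14 among the falling members, against 0.02 over all probes, and it was -0.06 between rising and falling members. With slide also removed it was 0.06 and 0.15. Some members stood much closer than these means. Among the falling ones, KIF2C, C106R124, C174R002, C187R163, C188R061, C194R076 and C225R124, a group of 7 singled out after its values were seen, had correlations of 0.51 to 0.86 over their 21 pairs, with a median of 0.75. KIF2C correlated with C194R076 at 0.83, and the group holds the 3 unnamed falling members with the largest change. With slide also removed, the median over these pairs was 0.50 and the range 0.21 to 0.96. Of the 406 pairs of falling members 29 lay above 0.6, and of the 666 pairs of rising members 11, as at C188R121 and C194R052 with 0.93 and at C201R089 and C223R064 with 0.87. All points share arrays, and these correlations are descriptions.

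The other genes of the members' pathways were counted in 15 lists of named probes. Differences of listed probes and of cell markers are those of limma in the scanner values. The names come from the study's WN list and the qPCR set, so nearly all listed probes were chosen by the study for a difference on these arrays, and no list is independent evidence. Over all 1444 named probes tested, limma called 350 higher and 357 lower in WN fish and 284 higher and 234 lower in WH fish, where 4.94% and 5.14% of all probes tested were called. The median change of the named probes was -0.64 in WN fish, -0.36 in WH fish and 0.10 between WH and WN fish. No list had a probe called between WH and WN fish.

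Cell cycle and DNA replication genes, the company of KIF2C although KIF2C is not in the list, had 28 probes, of which 12 were lower and 1 higher in WN fish and 18 lower and 1 higher in WH fish. Their median was -0.82 in WN and -0.87 in WH fish, and -0.16 between WH and WN fish. Amino acid and nitrogen metabolism, which holds ABAT, had 12 probes. Against CT, limma called 2 of them higher and 3 lower for WN, and 2 higher and 1 lower for WH. This list lay at a median of -0.87 from CT in WN and -0.26 in WH fish. Its median of 0.46 between WH and WN fish was therefore a step back towards CT, unlike the WH step of ABAT. Redox and xenobiotic genes, which hold ABCG2, had 28 probes, with 3 higher and 10 lower in WN fish and 1 higher and 6 lower in WH fish.

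Folding genes of the endoplasmic reticulum, where SEC62 works, had 24 probes, of which 5 were higher and 6 lower in WN fish and 4 higher and 1 lower in WH fish. Immune defence genes had 21 probes, with 3 higher and 5 lower in WN fish and 4 higher and 2 lower in WH fish. Ribosome and translation genes had 41 probes, 16 higher and 8 lower in WN fish and 14 higher and 1 lower in WH fish. RPS6KL1 falls in that list by its symbol only and is a kinase, not a part of the ribosome.

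Cytosolic and mitochondrial chaperones, the usual targets of heat shock factors, had 30 probes, of which 21 were called higher in WN fish (median 1.37) and 21 in WH fish (median 1.32), and 0 of them was a graded member. Of the 30, 20 had 18 values and were not qPCR probes, as a member must be. Among all probes that met this, 66 of 11740 (0.562%) were graded, and among the named ones 10 of 1026 (0.975%), so nothing is read from a count of 0 in a short list. Hypoxia genes and targets of the hypoxia-inducible factors had 9 probes, 1 higher and 0 lower in WN fish and 1 higher and 3 lower in WH fish, with a median of 0.01 between WH and WN fish, and 0 graded members among the 4 probes that could have been one. Proteasome and ubiquitin genes, the longest list with 79 probes, had 4 higher and 42 lower in WN fish and 2 higher and 20 lower in WH fish, with 0 graded members among the 59 that could have been one. Lists of glycolysis, lipid metabolism, the respiratory chain, antigen presentation, apoptosis, and matrix and cytoskeleton also held 0 graded members, with 6 to 16 probes each that could have been one.

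Markers that define liver cells were represented by 5 named hepatocyte probes, of APOH, A2M and C3, of which 1 was higher and 0 lower in either warmed group. APOH lay 1.62 above CT in WN and 1.40 in WH fish. The other 4 had lower means in both warmed groups and lay nearer to CT in WH than in WN fish, with WH minus WN at 0.42 and 0.58 for the A2M probes and 0.52 and 0.26 for those of C3. In the scanner values, the median WH minus WN of the list was 0.42, beside 0.56 in the rising members and 0.10 over all named probes. Nearly all named probes were chosen by the study for a difference in WN fish. That choice can leave WH means nearer to CT, and its part was not tested. The 0.42 is not read as a step of hepatocyte genes. Over all named probes the median difference from CT was -0.64 in WN and -0.36 in WH fish. Leukocyte markers had 7 probes, with 2 higher and 1 lower in WN fish and 2 higher and 0 lower in WH fish. Single probes of exocrine pancreas (SPINK1) and of stellate cells (COL1A1) were tested, with SPINK1 higher in WN and COL1A1 lower in WH fish. Their part in the graded values was not tested.

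The steps of the rule had close neighbours on both sides. Among rising probes, C242R144 was just inside with a WH step of 0.50 and TNIK (C258R099) just outside with 0.49. C187R024 was inside with a WN step of 0.32 and C135R006 outside with 0.28. Among falling probes, C096R141 was inside with a WH step of 0.54 and C130R165 outside with 0.48, and C220R157 was inside with a WN step of 0.37 and C132R118 outside with 0.26. On the separation of WH from CT, C135R009 was inside by 0.02 and C058R026 just outside among the rising probes, and RPS6KL1 inside by 0.03 and C073R129 just outside among the falling ones. The WH step was the one that most probes missed, with 252 rising and 281 falling probes failing it alone.

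**Figure D5:**
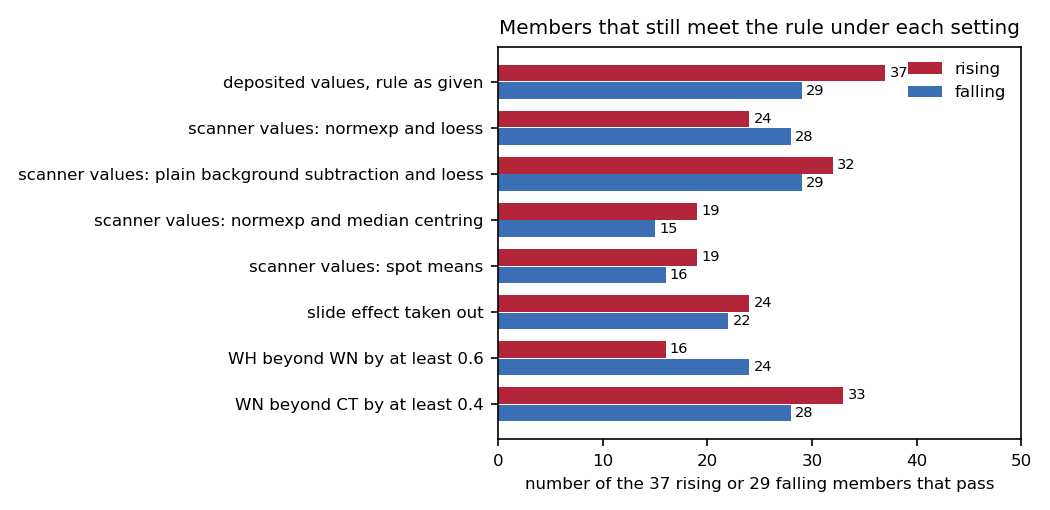
Number of the 37 rising and 29 falling members (x axis) that still met the rule in the deposited values, in values computed from the scanner files, with the slide effect taken out and with stricter steps. From 19 to 32 rising and from 15 to 29 falling members were kept across the scanner values.

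The rule was run again on values computed from the scanner files. With normexp background correction and loess, 24 of the 37 rising and 28 of the 29 falling members met it, and with plain background subtraction 32 and 29. Where arrays were only centred on their medians, without loess, 19 and 15 were kept, and with spot means 19 and 16. Of the members, 12 rising and 13 falling met the rule in all 4 of normexp with loess, plain subtraction with loess, spot means and the deposited values with slide taken out. Median centring is not among these 4. Under it the 12 rising members still passed, whereas C038R137, C044R072, C128R027 and C238R071 of the 13 falling ones did not. With each of the 18 arrays left out in turn, 14 rising and 16 falling members always met it. Both STOM probes, LOC106563387, LOC106585649 and LOC106598366 among the rising and DIO3 and KIF2C among the falling members with a name met the rule in all of these settings. ABAT, ABCG2 and RPS6KL1 did not.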

How the data were processed

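Liver RNA of 18 salmon was measured on 18 two-colour arrays. The authors read the spots with ImaGene, and each deposited array file gives the intensity and background of every spot. For the deposited value table, the authors corrected for background, dropped flagged spots and loess-normalized the log2 ratio of Cy5 over Cy3. The paper also reports dropping probes undetected on many arrays and imputing missing values. The deposited table still has missing values, so it was not settled whether any of its values were imputed. Its 11761 probes with a value on all arrays gave the members. From the intensities, log2 ratios were computed in R 4.3.3 with limma 3.58.1 (normexp, offset 50, loess). Flags covered 8.93% to 17.3% of an array's probes, and the correlation of an array with the deposited values was 0.959 to 0.996. The 23846 probes tested were unflagged and above background by 2 SDs in either channel on 75% of arrays. Fits had 3 groups, 6 tanks, or treatment and slide, with Benjamini-Hochberg adjustment and a threshold of 0.05, and were tested on simulated data. Tank-mates count as independent in these fits, and the number of arrays limits precision. SEs of deposited differences use group SDs.

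Symbols came from the study's WN annotation (1493 lines read) and qPCR list, with names from RefSeq Ssal_v3.1. Columns of the authors' fold changes were not used. Named genes are all members with a symbol, the 3 unnamed members with the largest change per direction, gene list members and threshold neighbours, while C080R163, C102R131, C113R149 and the probes named for high correlations were named after their values were seen, as were other probes of the same genes. Members and lists were chosen with earlier results of these data known. Alternatives were other background corrections, centring, spot means, slide, tank or replicate blocks, detection filters, separate fits, other steps and each array left out. Figures were drawn in Python 3.11.15.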

Additional observations from a re-analysis of the deposited data

Results flagged for a closer look

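Of 54 groups of 6 fish examined for a fish far from the others (the members shown individually and the medians per fish), 1 had such a fish. At STOM (C027R068), CT-1 lay at -0.89, while the other 5 CT fish lay between -1.96 and -1.81. Chance alone marks about 1 group in 20 at the level used (95%).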

How the results depend on the processing

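The median WH step of the rising members was 0.54 to 0.61 and that of the falling members -0.75 to -0.54 under the scanner values and with slide as a block, and 0.58 to 0.69 and -0.88 to -0.65 with each array left out. In each of 736 comparisons of a shown member with an alternative, its differences kept their sign, 10 of them moving by more than the SD between fish. The number of graded probes moved more. The 37 rising probes became 59 with the slide effect taken out, 68 with a WH step of 0.4 and 16 with 0.6, and the 29 falling ones 46 with normexp and loess (23 mirrored there). The 9 mirrored rising probes became 4 with median centring, 5 with spot means, 23 with slide taken out, 22 with a step of 0.4 and 4 with 0.6, and the 30 mirrored falling ones 54 with 0.4 and 18 with 0.6. Leaving out an array gave 28 to 65 rising, 27 to 42 falling, 7 to 16 mirrored rising and 27 to 64 mirrored falling probes, and by construction a group with 5 fish passes the separation more easily. WH-1 raised the rising count to 65 and, of the mirrored counts, WN-3, WN-5 and WN-6 moved the rising (16, 16 and 14) and CT-3, WN-3, WN-4 and WN-6 the falling one (47, 54, 53 and 64). Over all probes, median centring lowered the 1179 calls for WN v CT to 473 and the 1226 for WH v CT to 497, slide as a block lowered the latter to 693, and leaving out an array gave 754 (without CT-6) to 1165 and 885 to 1289. The count of 0 called between WH and WN held in all alternatives run. The single probe called between T2 and T5 became 2 in the deposited values, 0 where detection on all arrays was asked, and 0 to 2 with an array left out (2 without WN-2, 0 without WN-1, WN-3 or WN-5). The 14 probes of the slide test became 22 with plain subtraction, 8 with no detection filter, 28 with detection on all arrays, and 0 to 18 with an array left out (8 without CT-1, CT-6 or WN-2, 0 without CT-2 or WN-4, 1 without WH-1, 9 without WH-3). The cause of these shifts was not tested. Replicate numbers did not pair the fish (r from -0.12 to 0.13 over 18 pairs, 5 of them highest with the own number), and with the replicate number as a block the counts were 1006, 1034 and 0. Low signal limits members that were below background on some arrays.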
